A study of Mus musculus with 6 samples.

Results

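The heat shock chaperones described here are 10 genes, chosen by name from the 49315 genes of the count table: Hspa1a, Hspa1b, Hspa8, Hsph1, Hsp90aa1, Hsp90ab1, Dnajb1, Hspb1, Hspd1 and Hsf1. All 10 passed the count filter and were among the 18234 genes tested. Transcripts were measured by RNA sequencing of total RNA, after ribosomal RNA depletion, in bEND.3, an established line of mouse brain endothelial cells. Cells were transfected with Lipofectamine 2000 and 100 nM of an antisense locked nucleic acid GapmeR, an oligonucleotide that directs RNase H to cut its target RNA. In 4 samples the GapmeR was directed at the long noncoding RNA Gm39822 (genotype label: Gm39822 knockdown), and in 2 samples a negative control GapmeR was used at the same dose. All samples therefore carried an oligonucleotide and the transfection reagent, and no untreated cells were analysed here. The labels name 1 oligonucleotide product for each group, so losing Gm39822 and receiving that oligonucleotide cannot be told apart. The labels do not say whether samples of a group came from separate cultures, so p-values measure the spread between these samples, which may be technical.

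Heat shock proteins are molecular chaperones that bind unfolded or partly folded proteins. HSP70 proteins hold short hydrophobic stretches in cycles of ATP hydrolysis, which J-domain proteins stimulate and nucleotide exchange factors reset, and HSP90 receives partly folded kinases and steroid receptors from HSP70. When unfolded proteins accumulate, the transcription factor HSF1 is released from chaperones, forms trimers and binds heat shock elements, inverted repeats of GAA and TTC, upstream of inducible chaperone genes. In endothelium, HSP90 is also known as a partner of nitric oxide synthase.

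The promoters of 5 members are shown because each holds a pair of the inverted units that make up heat shock elements. The pair is written GAANNTTC or TTCNNGAA and marked in capitals. Each motif reads the same on both strands, and matches may overlap. Sequences are RefSeq's for GRCm38.p6, 5′ to 3′ along the gene's strand. Hspa1a (chr17:34972157-34972406, minus strand) and Hspa1b (chr17:34959239-34959488, minus strand) are given as the 250 bases before the annotated start. Shorter stretches around the motif are given for Hsph1 (chr5:149636342-149636393, minus strand), Hspb1 (chr5:135887778-135887849, plus strand) and Hspd1 (chr1:55088039-55088100, minus strand).
Hspa1a: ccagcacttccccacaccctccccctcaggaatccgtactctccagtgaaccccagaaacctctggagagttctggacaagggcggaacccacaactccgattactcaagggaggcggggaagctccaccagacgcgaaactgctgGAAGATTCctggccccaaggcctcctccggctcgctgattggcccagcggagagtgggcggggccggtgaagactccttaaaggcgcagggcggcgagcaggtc
Hspa1b: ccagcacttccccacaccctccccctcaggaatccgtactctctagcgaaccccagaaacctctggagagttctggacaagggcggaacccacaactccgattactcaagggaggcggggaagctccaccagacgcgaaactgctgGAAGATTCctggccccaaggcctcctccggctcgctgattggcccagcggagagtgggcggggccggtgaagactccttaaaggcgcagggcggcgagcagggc
Hsph1: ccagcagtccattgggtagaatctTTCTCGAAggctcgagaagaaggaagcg
Hspb1: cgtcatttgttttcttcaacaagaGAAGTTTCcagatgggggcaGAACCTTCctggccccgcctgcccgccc
Hspd1: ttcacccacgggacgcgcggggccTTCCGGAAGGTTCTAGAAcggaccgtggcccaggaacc

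The promoter table held 6 of the 10 members, with Hspa8, Hsp90aa1, Hsp90ab1 and Hsf1 not in it. The pair of units was found in 5 of these 6 genes, all but Dnajb1, against 17.0% of the 27025 genes of the table, in windows of 300 bases that run from 250 before the start to 50 after it. In Hspa1a and Hspa1b the match, GAAGATTC, began 104 bases before the start. Hspd1 has 2 annotated starts in the table. Before the one further inside the gene, 3 overlapping matches began 144, 139 and 134 bases away, so the stretch printed lies within the gene's annotated span, and the window of the outer start held 0 matches. In Hspb1 matches began 117 and 97 bases before the start. The match shown for Hsph1 began 33 or 54 bases before the start, depending on which of its annotated starts is used. A run of 3 alternating units was found in 2 members, Hspd1 and Hsph1, against 0.662% of genes, and in Hsph1 it lay after the start. A match describes the letters only, and no binding was measured. The promoters of Hspa1a and Hspa1b were near copies: over the 250 bases printed they differed at 3 positions, counted from 1 at the 5′ end with the Hspa1a base first, C44T, T47C and T249G, which left 98.8% identical, and the motif and its surroundings did not differ.

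Libraries held 29261988 to 37117934 counts, and 20573 to 23566 genes had counts in a sample. A count of 3 corresponded to 0.0771 to 0.110 CPM (normalised counts scaled to library size) in these libraries, which covers counting error only. The targeted RNA, Gm39822, had 2, 1, 4 and 2 counts with its GapmeR and 61 and 56 with the control oligonucleotide (adjusted p = 8.8e-08, edgeR). All 14 brain endothelial markers averaged at least 1 CPM, and their summed level was 9534 to 10927 CPM with the GapmeR and 11396 to 11885 CPM in the controls. Of 10 macrophage markers 9 averaged at least 1 CPM, and their sum was 227, 207, 349 and 382 CPM with the GapmeR (samples 1 to 4) and 172 and 176 CPM in the controls. Summed pericyte and smooth muscle markers were 8.59 to 13.02 CPM with the GapmeR and 2.13 to 2.23 CPM in the controls, while fibroblast markers summed to 16.3, 14.7, 66.8 and 19.8 CPM with the GapmeR (samples 1 to 4) and 14.3 to 15.6 CPM in the controls, the high value being sample 3 alone. Astrocyte markers summed to 2.01 to 3.68 CPM with the GapmeR and 5.83 to 6.17 CPM in the controls, and neuron markers to 21.7 to 38.2 and 46.5 to 48.2 CPM. No marker was at 0 in all samples, and the part of other cell types in the results below was not tested. In bulk RNA, fewer cells of a type and less RNA per cell cannot be told apart.

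Of the 10 chaperone genes, 6 were lower after the Gm39822 GapmeR (Hspa1a, Hspa1b, Hsph1, Hsp90aa1, Dnajb1 and Hspd1), none was higher and 4 did not pass an adjusted p-value of 0.05 in edgeR's quasi-likelihood test. Over all genes tested, 45.3% were called, 20.0% as lower and 25.4% as higher. Only the inducible HSP70 genes Hspa1a and Hspa1b were at least 1.5-fold lower, 2 of 10, where 7.62% of all genes were. The median log2 fold change of the 10 genes was -0.23, against 0.025 over all genes. In TMM-normalized CPM, every GapmeR sample lay below both controls for 8 of the 10, as for 27.3% of all genes. The groups of 59.2% of all genes were apart in either direction. This depends on the scaling: with counts scaled by library size only, the groups of Hsp90aa1, Hsp90ab1, Hspb1 and Hspd1 overlapped. Statements below that groups did not overlap in CPM refer to TMM-normalized CPM. The count of 0 higher genes was also 0 at an unadjusted p-value of 0.05 and with DESeq2's Wald test and limma-voom. The count of lower genes was 7 with each of those tools, 4 without control 1 and 3 without control 2. It was 4 without GapmeR samples 3 and 4, the samples with the highest macrophage marker sums. Calls over all genes changed with these settings too. Leaving out GapmeR samples 3 and 4 gave 7661 calls, 41.8% of them lower, against 8268 calls, 44.1% of them lower, with all samples. Without control 1 or without control 2, fewer genes were called over all genes, and a smaller part of those calls was lower.

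**Figure D1:**
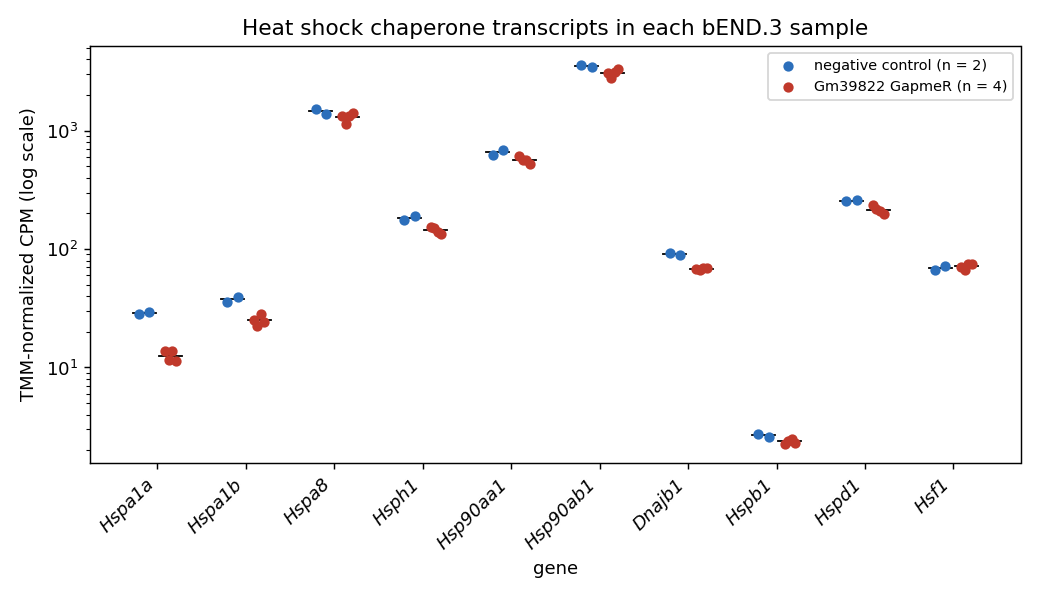
TMM-normalized CPM (log axis) of each chaperone gene in each sample, with blue points for the 2 negative controls, red points for the 4 GapmeR samples and a line at each group's mean. Hspa1a shows the widest gap, 11.5 to 13.8 CPM against 28.5 and 29.6, while the groups of Hspa8 and Hsf1 overlap.

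The members spanned a wide range of levels. Per kilobase of the canonical transcript, control levels were highest for Hsp90ab1 (1299.7 CPM per kb), the constitutive cytosolic HSP90, and Hspa8 (609 CPM per kb), the constitutive HSC70. Hsp90aa1, the inducible cytosolic HSP90, followed at 186 and the mitochondrial chaperonin Hspd1 at 106 CPM per kb. Hsph1 stood at 29.6 and Dnajb1 at 25.6 CPM per kb. Hsf1, the heat shock factor, and Hspa1b came next at 13.5 and 13.4 CPM per kb, less apart than their spread between samples, followed by Hspa1a at 9.78 and the small heat shock protein gene Hspb1 at 2.91. After the GapmeR the order was kept, with Hspa1b at 8.94 and Hspa1a at 4.25 CPM per kb, and the members together took 0.527% to 0.595% of a library's counts, against 0.576% and 0.599% in the controls.

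The inducible HSP70 genes had the largest differences among the members. Hspa1a (ENSMUSG00000091971, chromosome 17, 34969359 to 34972156) gave 463, 449, 428 and 370 counts with the GapmeR (samples 1 to 4) but 780 and 944 counts in controls 1 and 2. In CPM this was 13.7, 11.5, 13.8 and 11.5 against 28.5 and 29.6. The groups did not overlap, and the GapmeR mean of 12.6 ± 1.29 CPM (SD, n = 4) was 43.4% of the control mean of 29.03 ± 0.782 CPM (SD, n = 2). On the log2 scale the change was -1.20 ± 0.10 (SE), with an adjusted p of 5.7e-08 in edgeR.

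Hspa1b (ENSMUSG00000090877, chromosome 17, 34956429 to 34959238), which encodes a nearly identical HSP70, was at 25.3, 22.4, 28.1 and 24.3 CPM with the GapmeR and 35.6 and 39.5 CPM in the controls. All GapmeR samples were below both controls, and the mean fell to 66.6% of control, with a log2 fold change of -0.59 ± 0.09 (SE) and an adjusted p of 7.4e-05 in edgeR. Of the 2818 windows of 150 bases, the read length, along the Hspa1a transcript, 1119 (39.7%) also occurred in Hspa1b or Hspa1l, so single reads from these stretches fit more than 1 gene. With the counts of both genes added, which removes the split between them, the level was 37.7 ± 3.54 CPM (SD, n = 4) against 66.6 ± 3.51 CPM (SD, n = 2). Their log2 fold change was -0.82 ± 0.08 (SE), with an adjusted p of 9.1e-07 in edgeR.

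The balance of Hspa1a to Hspa1b was lower in every GapmeR sample than in both controls. Within samples, the ratio of Hspa1a to Hspa1b counts, examined after their values were seen, was 0.540, 0.515, 0.490 and 0.471 with the GapmeR and 0.799 and 0.749 in the controls. The groups did not overlap (difference of mean log2 ratios -0.62, exact permutation test, 2-sided p = 0.0667, the smallest that 15 splits of 4 against 2 allow). How reads that fit both genes were counted is not given in the sources used here.

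Hspa8 (ENSMUSG00000015656, chromosome 9, 40801276 to 40805202), the constitutive relative of these genes, was at 1323, 1146, 1319 and 1398 CPM with the GapmeR and 1527 and 1388 CPM in the controls. GapmeR sample 4 lay above control 2, so the groups overlapped. The log2 fold change of -0.17 ± 0.09 (SE) did not pass the test (adjusted p = 0.13, edgeR), and 2 SE around it ran from -0.35 to 0.0075. Over the canonical transcript of Hspa8, 55.4% of 150-base windows were also found in transcripts of 4 other genes, Gm15459, Gm8355, Gm6210 and Gm7232.

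Hsph1 (ENSMUSG00000029657, chromosome 5, 149616843 to 149636498) encodes HSP110, a nucleotide exchange factor of HSP70. It was at 153, 149.97, 140.3 and 135 CPM with the GapmeR and 177 and 189 CPM in the controls, with no overlap. It fell from a mean of 183 ± 8.37 (SD, n = 2) to 144 ± 8.39 CPM (SD, n = 4). This was -0.34 ± 0.07 (SE) on the log2 scale (adjusted p = 0.0014, edgeR). Without control 2 it was -0.27, with an adjusted p of 0.063 in edgeR.

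Dnajb1 (ENSMUSG00000005483, chromosome 8, 83608175 to 83612653) encodes HSP40, the J-domain protein that stimulates HSP70. Its levels were 68.3, 66.4, 69.1 and 68.9 CPM with the GapmeR and 92.5 and 88.5 CPM in the controls. The GapmeR samples lay close together and well below both controls. The mean fell from 90.5 ± 2.81 (SD, n = 2) to 68.2 ± 1.20 CPM (SD, n = 4), or 75.4% of control, with a log2 fold change of -0.41 ± 0.07 (SE) and an adjusted p of 0.00011 in edgeR. None of the windows of 150 bases of Dnajb1, Hsph1, Hsp90ab1 or Hsf1 was found in another gene's transcripts, while 33.5% of those of Hsp90aa1, 52.5% of those of Hspb1 and 18.6% of those of Hspd1 were.

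The cytosolic HSP90 genes had smaller differences. Hsp90aa1 (ENSMUSG00000021270, chromosome 12, 110691036 to 110696395) was at 612, 566, 564 and 523 CPM with the GapmeR and 628 and 683 CPM in the controls. The groups did not overlap, though GapmeR sample 1 was close to control 1. Its log2 fold change was -0.21 ± 0.08 (SE, adjusted p = 0.042, edgeR). The call was lost with DESeq2's size factors (-0.21, adjusted p = 0.051), without GapmeR samples 3 and 4 (-0.13, adjusted p = 0.34, edgeR), without GapmeR sample 3 alone (-0.19) or 4 alone (-0.17), both with an adjusted p of 0.11 in edgeR, and without either control.

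Hsp90ab1 (ENSMUSG00000023944, chromosome 17, 45567778 to 45573261) was at 3043, 2779, 3108 and 3287 CPM with the GapmeR and 3592 and 3434 CPM in the controls. No samples overlapped, but the log2 fold change of -0.20 ± 0.09 (SE) did not pass the test (adjusted p = 0.064, edgeR). It did pass with DESeq2's Wald test (adjusted p = 0.039) and with limma-voom (adjusted p = 0.044). The estimates for the HSP90 genes, -0.21 and -0.20, thus stood on either side of the threshold.

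Hspd1 (ENSMUSG00000025980, chromosome 1, 55077833 to 55088243) encodes HSP60, which folds proteins in the mitochondrial matrix. Its levels were 235, 219, 209 and 198 CPM with the GapmeR and 252 and 261 CPM in the controls, without overlap. Its log2 fold change was -0.25 ± 0.08 (SE, adjusted p = 0.014, edgeR). Without GapmeR samples 3 and 4 it was -0.16 (adjusted p = 0.21, edgeR), and the call was also lost without either control or without GapmeR sample 3.

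Hspb1 (ENSMUSG00000004951, chromosome 5, 135887919 to 135889563), an ATP-independent holdase that also binds actin, had 77, 94, 77 and 75 counts with the GapmeR and 75 and 83 counts in the controls. As CPM these were 2.27, 2.41, 2.48 and 2.32 against 2.74 and 2.60, without overlap. The log2 fold change of -0.17 ± 0.18 (SE) did not pass the test (adjusted p = 0.47, edgeR), and 2 SE around it ran from -0.53 to 0.20.

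Hsf1 (ENSMUSG00000022556, chromosome 15, 76477362 to 76501155) was at 70.1, 66.4, 74.7 and 75.4 CPM with the GapmeR and 66.5 and 71.7 CPM in the controls. The groups overlapped. The log2 fold change of 0.051 ± 0.076 (SE) did not pass the test (adjusted p = 0.61, edgeR), and 2 SE around it ran from -0.10 to 0.20. Counts of Hsf1 transcripts do not measure the amount or activity of its protein.

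**Figure D2:**
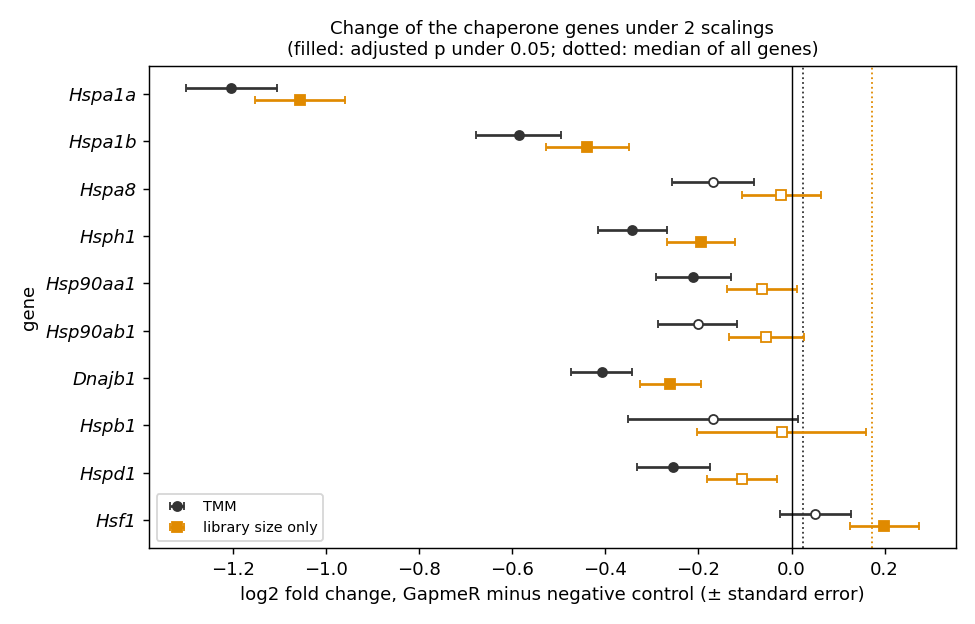
Log2 fold change (GapmeR minus negative control) of each chaperone gene with its standard error, scaled by TMM (black circles) or by library size only (orange squares), with filled symbols for an adjusted p under 0.05 and dotted lines at the median of all genes, 0.025 and 0.17. The whole set shifts with the scaling, and Hspa1a, Hspa1b, Hsph1 and Dnajb1 are filled and below 0 under both.

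Scaling between samples moved all genes together. The TMM factors were 1.02 to 1.05 with the GapmeR and 0.931 and 0.936 in the controls. With library size only, the median over all genes was 0.17 instead of 0.025, and 25.9% of all calls were lower instead of 44.1%. Relative to that median, Hspa1a was at -1.23, Hspa1b at -0.61, Dnajb1 at -0.43 and Hsph1 at -0.37 under either scaling. That match holds for any gene, because subtracting the median removes a shift shared by all genes. Before that subtraction, with library size only, Hspa1a (-1.06), Hspa1b (-0.44), Dnajb1 (-0.26) and Hsph1 (-0.19) still passed the test as lower, while Hsp90aa1 (-0.063) and Hspd1 (-0.11) did not. Hsf1 then passed as higher, at 0.20 (adjusted p = 0.04, edgeR), and was 0.026 above the median.

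Ratios within a sample do not depend on this scaling. Of 5 ratios compared, (Hspa1a + Hspa1b)/Hspa8, inducible against constitutive HSP70, was 0.0295, 0.0296, 0.0318 and 0.0256 with the GapmeR and 0.0420 and 0.0497 in the controls. Every GapmeR sample was below both controls, with a difference of mean log2 ratios of -0.65 (exact permutation test, 2-sided p = 0.0667, 0.167 adjusted over the 5 ratios). Dnajb1/Hspa8 was 0.0516, 0.0580, 0.0523 and 0.0493 against 0.0606 and 0.0637, also without overlap (difference -0.24, exact permutation p = 0.0667, adjusted 0.167). The p-value of 0.0667 is the smallest this design can give, so no ratio could pass 0.05.

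Hsp90aa1/Hsp90ab1 averaged 0.186 ± 0.0206 (SD, n = 4) with the GapmeR and 0.187 ± 0.0170 (SD, n = 2) in the controls (exact permutation p = 1), a difference smaller than the spread between samples. Hsph1/Hspa8 was 0.112 ± 0.0146 (SD, n = 4) against 0.126 ± 0.0142 (SD, n = 2), with overlap (exact permutation p = 0.333). Hspd1/Hspe1, the chaperonin against its lid HSP10, was 1.75, 1.13, 1.35 and 1.19 against 1.74 and 1.88 (exact permutation p = 0.2). Only GapmeR sample 1 reached the range of the controls. Hspd1 and Hspe1 are neighbours whose annotated spans overlap, and the strand setting of the counting is not given in the sources used here.

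**Figure D3:**
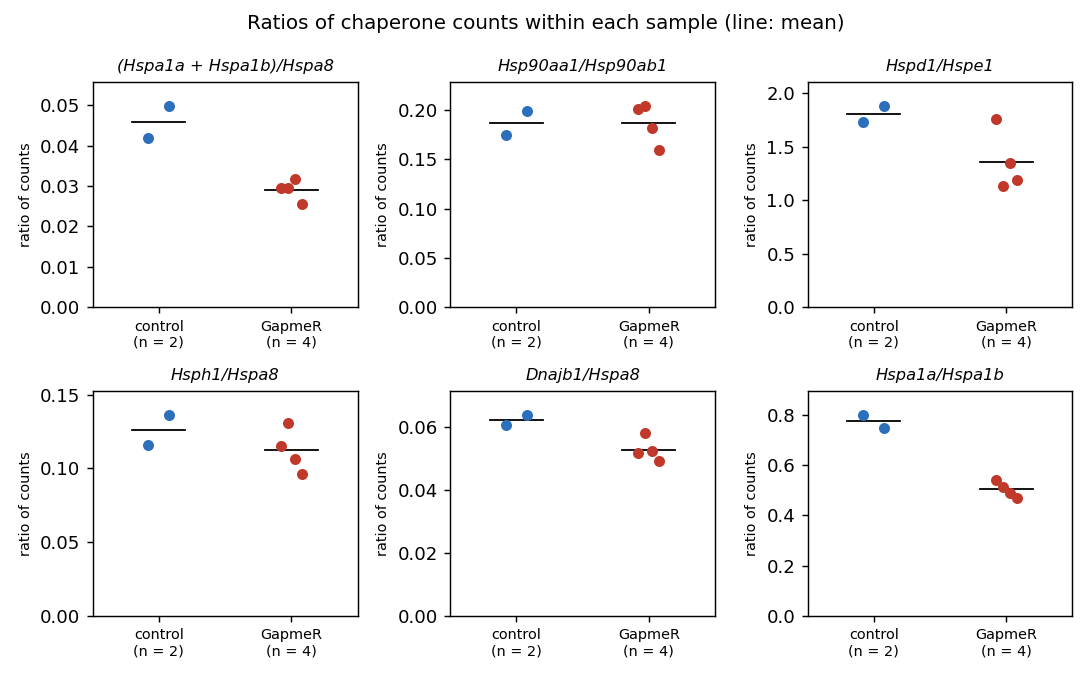
Ratios of counts within each sample for the 5 planned pairs and, chosen after its values were seen, Hspa1a/Hspa1b, with blue points for the 2 controls, red points for the 4 GapmeR samples and lines at the means. The groups are apart for (Hspa1a + Hspa1b)/Hspa8, Dnajb1/Hspa8 and Hspa1a/Hspa1b and overlap for the other 3 pairs.

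The wider chaperone network was described with 10 hand-written lists of 114 genes, of which 111 were tested. Of these, 39 were lower and 10 higher after the GapmeR, where 20.0% of all genes were lower and 25.4% higher, with a median log2 fold change of -0.13 against 0.025 over all genes. Leaving out the 10 members, 33 of 101 were lower and 10 higher, with a median of -0.11. Without control 2, 23 list genes were lower and 7 higher. Without control 1, 30 were lower and 6 higher, and with library size only 26 were lower and 19 higher. In 3 lists described below as having no higher gene by edgeR's adjusted p (TRiC and prefoldin, endoplasmic reticulum, HSF1 targets), DESeq2's Wald test and limma-voom also called none higher, and 0 were higher at an unadjusted p-value of 0.05.

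For each list below, the shares over all genes to set beside its counts are 20.0% lower and 25.4% higher, in edgeR with TMM and all samples. Other settings changed these shares. With library size only, 25.9% of 8241 calls over all genes were lower, against 44.1% of 8268 with TMM. Without control 1 or without control 2, fewer genes were called over all genes, and a smaller part of those calls was lower. Of 12 HSP70 and HSP110 genes 4 were lower and none higher by edgeR. The fourth was Hspa4l, an HSP110 relative, which fell from 32.5 to 15.2 CPM (-1.10 ± 0.09, SE). The count of higher genes was 0 with DESeq2's Wald test and limma-voom too, 1 at an unadjusted p-value of 0.05 and 3 with library size only. Of 16 J-domain proteins 8 were lower and 1 higher, against 4 lower without control 2 and 4 higher with library size only. Dnajb2, which delivers ubiquitinated clients to the proteasome, fell from 134 ± 16.6 (SD, n = 2) to 50.4 ± 2.61 CPM (SD, n = 4), which on the log2 scale was -1.41 (adjusted p = 6.3e-10, edgeR), larger in size than that of any member. Dnajb4 fell by 0.80 and Dnaja4 by 0.50 on the log2 scale.

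Among 9 nucleotide exchange factors and HSP70 partners, 4 were lower and 1, Bag2, was higher (0.48, not called without either control or without GapmeR sample 4). With library size only 2 of this list were lower, and without control 2, 1 was. Bag3, which links HSP70 to selective autophagy, was at 93.3, 72.4, 96.5 and 93.6 CPM with the GapmeR and 133 and 136 CPM in the controls, with a log2 fold change of -0.60 (adjusted p = 0.00018, edgeR). Among 18 HSP90 genes and co-chaperones, 4 were lower and 3 higher, against 20.0% and 25.4% of all genes, so the lower share was near that of all genes. The lower count was 1 with library size only or without control 2, and 2 without control 1 or without GapmeR samples 3 and 4. Fkbp5, a steroid receptor co-chaperone, fell from 43.6 to 24.8 CPM (-0.81), and Ppp5c, the HSP90-bound phosphatase, rose from 97.2 to 134 CPM (0.46). Stip1, which bridges HSP70 and HSP90, was at -0.056 and did not pass the test.

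Small heat shock proteins were called in both directions, in shares near the 20.0% lower and 25.4% higher of all genes. Of 9 listed, 7 were tested, Hspb3 and Hspb7 having too few counts, and 1 was lower and 2 were higher. With limma-voom, or without GapmeR sample 4, 2 were lower. Cryab, the alpha-B crystallin gene, fell from 7.82 ± 1.18 (SD, n = 2) to 2.82 ± 0.531 CPM (SD, n = 4), or -1.47 as log2 fold change (adjusted p = 4.4e-06, edgeR). Hspb9, a testis-type member, rose from 33 and 53 counts in the controls to 327, 361, 307 and 315 counts with the GapmeR, a log2 fold change of 2.74 (adjusted p = 1.5e-09, edgeR). Hspb11, a subunit of the intraflagellar transport machinery, rose by 0.64 on the log2 scale.

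Of 14 mitochondrial chaperones and proteases 3 were lower, a share near the 20.0% of all genes, and 1 was higher. With library size only or without control 1, 1 was lower. Hspe1 was at 134, 194, 155 and 167 CPM with the GapmeR and 145 and 139 CPM in the controls, with overlap and a log2 fold change of 0.19 (adjusted p = 0.21, edgeR). Without GapmeR sample 1 it was 0.27 (adjusted p = 0.033, edgeR). Hspa9, the mitochondrial HSP70, was at 0.028, and Trap1, the mitochondrial HSP90, at -0.071, neither past the test. Of 14 TRiC and prefoldin subunits, which fold actin and tubulin, 2 prefoldin genes were lower, Pfdn6 (-0.59) and Pfdn5 (-0.33), and none was higher by edgeR. The lower count was 1 with library size only or without either control, and 4 without GapmeR sample 2.

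Of 7 heat shock factors and binding partners 6 were tested, with 1 lower and 2 higher. With at least 10 counts required in every sample, which Hsf2bp and Hsf5 did not have, 0 were lower and 1 was higher. The lower one, Hsf2bp, averaged under 1 CPM and is named after its value was seen. Hsf2 was at -0.16 (adjusted p = 0.17, edgeR). Hsf4 rose from 2.32 to 3.90 CPM (0.74, not called without control 1). Hsf5 had 144, 245, 161 and 190 counts with the GapmeR and 5 and 2 in the controls (adjusted p = 3.6e-09, edgeR), too few in the controls to size the fold. It met the count filter only through the GapmeR samples, where it was high. Of 22 genes classically named as HSF1 targets 11 were lower and none higher by edgeR, against 20.0% and 25.4% of all genes, with a median of -0.21. This list holds all members but Hsf1. Of these, Hspa1a, Hspa1b, Hsph1, Dnajb1, Hsp90aa1 and Hspd1 were lower, while Hspa8, Hsp90ab1 and Hspb1 did not pass the test. The other lower genes included Hspa4l, Dnaja1 (-0.36), Bag3 and Cryab. The 11 genes that did not pass included Stip1 (-0.056) and Hspe1 (0.19). Without control 2, 7 of this list were lower.

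The list of chaperones resident in the endoplasmic reticulum holds 13 genes, many of them known targets of the unfolded protein response. Of these, 11 were lower and none higher by edgeR, against 20.0% and 25.4% of all genes, with a median of -0.39. The differences were small: 0 were at least 1.5-fold lower, where 7.62% of all genes were. Hsp90b1, the endoplasmic reticulum HSP90, fell from 719 ± 38.4 (SD, n = 2) to 548 ± 24.1 CPM (SD, n = 4), or -0.39 as log2 fold change (adjusted p = 5e-04, edgeR). Hspa5, the HSP70 of that compartment, was at -0.12 (adjusted p = 0.23, edgeR) and its groups overlapped. Pdia3 (-0.56) and Hyou1 (-0.50) were the lowest of the list.

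**Figure D4:**
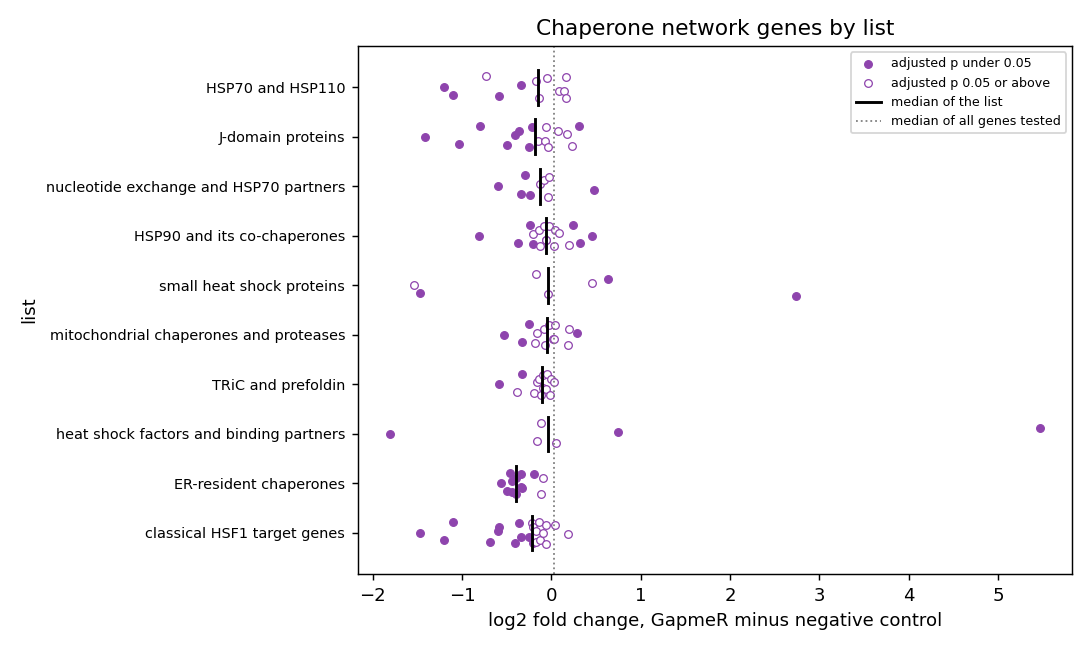
Log2 fold change (GapmeR minus negative control) of each tested gene in the 10 lists, filled where the adjusted p is under 0.05, with a black bar at each list's median and a dotted line at the median of all genes, 0.025. All medians lie below that line, the lowest for the ER-resident chaperones at -0.39, and the point far to the right, Hsf5, rests on 5 and 2 control counts.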

How the data were processed

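Total RNA of bEND.3 cells was sequenced after ribosomal RNA depletion as paired reads, and the authors processed the reads with bcbio-nextgen and aligned them to mm10 (GRCm38) with STAR and Ensembl transcripts. The submitters' processing notes list Trimmomatic 0.36, STAR 2.5.2b and Subread 1.5.2. The deposited values are raw whole-number read counts per Ensembl gene, and the strand setting and Ensembl release are not given in the sources used here. The labels give 4 GapmeR and 2 negative control samples, while the paper states 4 samples in each group. In the count table, 1 further column of per-sample counts matched none of these labels and was not used.

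A gene was tested if 2 or more samples had 5 or more counts. The test was edgeR 4.0.16 in R 4.3.3 (TMM, robust quasi-likelihood, group as the only term), adjusted by Benjamini-Hochberg over all genes tested. CPM values are TMM-normalized. Ratios were compared by 2-sided exact permutation tests. The functions were tested on simulated data. Gene and promoter coordinates are RefSeq's for GRCm38.p6, and transcript lengths and shared windows come from GENCODE transcripts of GRCm39.

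The members and lists were chosen with earlier results of these data known. The genes named are the 10 members, Gm39822, 8 partners (Hspe1, Hspa9, Trap1, Hspa5, Hsp90b1, Bag3, Stip1 and Hsf2) and, per list, at most 4 called genes with the largest log2 fold changes in size and a mean of at least 1 CPM. Dnaja1 was named after its value was seen, and 1 gene that the rule names is not reported here. Alternatives were DESeq2 1.42.0 size factors and Wald test, library size only, limma-voom (limma 3.58.1), 2 other filters, a 1.5-fold threshold, a replicate block, added Hspa1a and Hspa1b counts, a pseudocount in the ratios, 3 motif units and each sample left out. Leaving out GapmeR samples 3 and 4, and the Hspa1a/Hspa1b ratio, were added after seeing the data.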

Additional observations from a re-analysis of the deposited data

Results flagged for a closer look

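Among the named genes, 3 had 1 GapmeR sample far from the other GapmeR samples, with a gap that took more of the group's range than Dixon's 95% critical value for 4 samples. Bag3 was lowest in GapmeR sample 2 (72.4 CPM, the others 93.3 to 96.5 CPM), a gap of 0.865 of the range. Bag1, an HSP70 nucleotide exchange factor, was lowest in GapmeR sample 4 (257 CPM, the others 290 to 293 CPM), a gap of 0.903. Cdc37l1, a relative of the HSP90 kinase adaptor, was highest in GapmeR sample 2 (17.95 CPM, the others 14.1 to 14.7 CPM), a gap of 0.833. All of these samples still lay below both controls. In all, 52 groups were examined and 3 passed, and chance alone passes about 5% of groups. None of the 10 chaperone genes was among them.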

How the results depend on the processing

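Among the members, only Hspa1a and Hspa1b met the 1.5-fold threshold. Across the other alternatives run, Hspa1a (-1.24 to -1.06 as a single gene), Hspa1b (-0.66 to -0.44) and Dnajb1 (-0.43 to -0.26) stayed lower and past the adjusted p threshold. Among those alternatives Hsph1 lost its call only without control 2, and it ranged from -0.37 to -0.27 with a sample left out. Hsp90aa1 was not called with DESeq2's size factors (-0.21), library size only (-0.063), at least 10 counts in every sample (-0.16) or without GapmeR samples 3 and 4 (-0.13), and ranged from -0.25 to -0.13 with a sample left out. Hsp90ab1 became called with DESeq2's Wald test (-0.20), limma-voom (-0.20) and no filter beyond 1 count (-0.21), and ranged from -0.24 to -0.15 with a sample left out. Hspd1 was not called with library size only (-0.11) or without GapmeR samples 3 and 4 (-0.16), and ranged from -0.30 to -0.21 with a sample left out. Hsf1 was called higher (0.20) with library size only, which made 1 member higher. The cause was not tested.

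The count of lower members was 3 to 6 with a sample left out and 2 with a 1.5-fold threshold added to either p-value. List genes were lower in 23 to 43 and higher in 6 to 12 with a sample left out, and 19 were higher with library size only. With 3 motif units instead of a pair, 2 members had a match. With library size only, Trap1 (0.077), Hspa5 (0.032) and Stip1 (0.092) turned positive, none of them called. With a sample left out, Hspa9 ranged from -0.010 to 0.11 and Stip1 from -0.084 to 0.012.

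The labels link same-numbered samples only by that number, and GapmeR samples 3 and 4 have no partner. Deviations of the 2 pairs correlated at -0.0916 and 0.246 over 5687 genes. With only 2 pairs, these values cannot settle whether same-numbered samples were handled together. With the replicate block, on 4 samples, Hsp90aa1 (-0.15, adjusted p = 0.27, edgeR) and Hspd1 (-0.18, adjusted p = 0.15, edgeR) were not called, Hsf1 was -0.018, and 4 members were lower. Where 1 control is left out, the lone control is assumed to vary like the GapmeR samples. Hspb1, with 75 to 94 counts, is the member whose depth limits the comparison most.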
